A study of Rattus norvegicus with 10 samples.

Results

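The genes of bile acid synthesis and transport described here are 10 genes taken from a fixed list of names: the synthesis genes Cyp7a1, Cyp8b1, Cyp27a1 and Baat, the transporter genes Slc10a1, Abcb11, Abcc2 and Abcc3, and the nuclear receptor genes Nr1h4 and Nr0b2. They were chosen by symbol and not by a rule on their values, although earlier results of these data were known when they were chosen. Each of the 10 had exactly 1 probe set with a single symbol among the 14217 genes measured. RNA of whole liver was measured in 10 male Wistar rats, each on an Affymetrix GeneChip Rat Genome array of its own, from 150 ng of RNA. In 5 rats CVX-060, an inhibitor of angiopoietin 2, was given at 10 mg/kg through the tail vein once a week for 4 weeks, and 5 rats received vehicle, while all 10 had been made cirrhotic by inhaled CCl4. No rat without cirrhosis was analysed here, so every difference is one between CVX-060 and vehicle within cirrhotic liver. The age of the rats, their feeding and the time of day at which the livers were taken are not given in the sources used here.

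Hepatocytes make bile acids from cholesterol, either by the classic pathway, which starts with Cyp7a1, or by the alternative pathway, which starts with Cyp27a1, and Baat joins the products to taurine or glycine. The conjugates are pumped into bile by Abcb11 and, for some of them, Abcc2, return from the intestine with portal blood and are taken up again by Slc10a1, while Abcc3 can carry them from the cell back to blood. Bile acids bind the receptor encoded by Nr1h4 (FXR), which induces Nr0b2 (SHP), a repressor of Cyp7a1 and Cyp8b1, and Cyp7a1 is also known to follow the daily rhythm of the liver clock, of which Bmal1 is a core activator.

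The values are log2 signals, on which 1 unit is a doubling, and because each probe set binds with its own strength, levels are compared between rats and not between genes. All 10 genes lay above background in all 10 rats, where background was set per array at percentile 95 of 19 probe sets for sensory receptors of smell and trace amines, which liver does not use (5.36 to 6.08 over the arrays). The livers carried their labelled tissue: 8 of 9 hepatocyte markers measured lay above background in every rat, Fgb in none, and the mean log2 signal of the 9 was 12.08 to 12.13 with CVX-060 and 12.02 to 12.14 with vehicle. On the first principal component of all genes, CVX-060 rat 5 had a score of 35.5 and vehicle rat 2 one of 34.5, against -26.2 to 9.74 in the other 8 rats. The study kept only a pair of replicates per treatment after quality control and does not name them. Here the groups hold all 5 rats each. Both also carried signals of Cyp2c12, a P450 of female rat liver, of 12.02 in CVX-060 rat 5 and 12.71 in vehicle rat 2, where no other rat exceeded 9.79. In bulk liver, fewer cells of a type and less RNA per cell cannot be told apart.

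No gene of bile acid synthesis or transport differed between CVX-060 and vehicle beyond the spread between rats. Of the 10 genes, 7 had a lower mean with CVX-060 and 3 a higher one, where 47.4% of all genes had a lower mean, and the log2 differences ran between -0.38 for Nr0b2 and 0.40 for Abcc3. The median difference was -0.18 over the 10 genes and 0.01 over all genes. None passed an adjusted p of 0.05 in limma, as for 0.0% of all genes, and none passed at an unadjusted p of 0.05, as 2.44% of all genes did. In every one of the 10 the ranges of the groups overlapped, whereas 0.485% of all genes had ranges that did not overlap. The adjusted p from limma was 0.99997 for all 10 genes, and the lowest exact permutation p, two-sided over the 252 ways to divide the rats into 5 and 5, was 0.333 (Nr1h4), where the smallest this design allows is 0.0079.

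**Figure D1:**
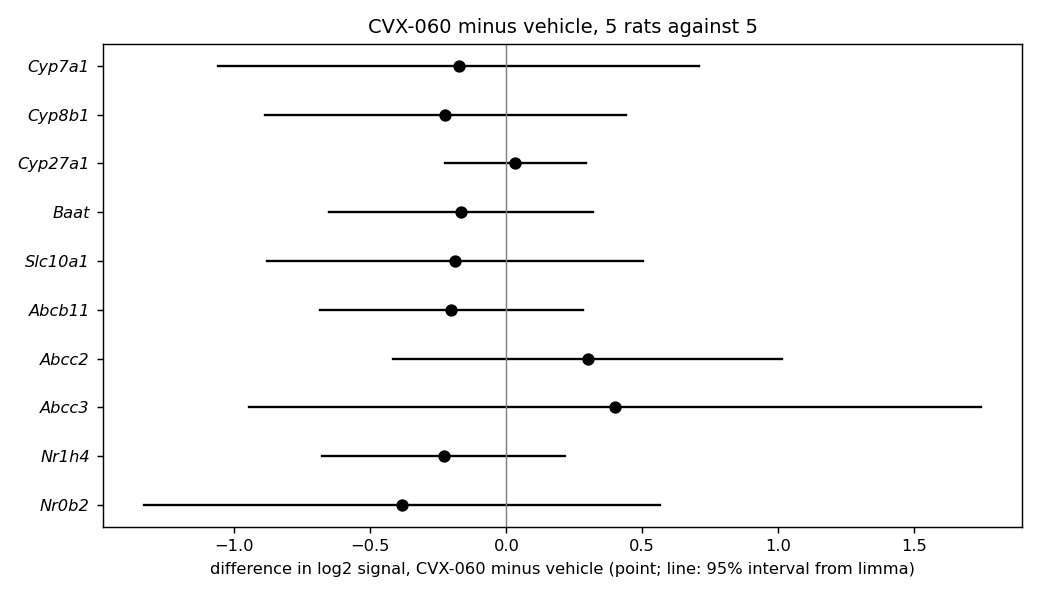
CVX-060 minus vehicle in log2 signal for each of the 10 genes (points) with the 95% confidence interval from limma (lines), 5 rats per group. Every interval includes 0, that of Abcc3 being the widest (-0.95 to 1.74) and that of Cyp27a1 the narrowest (-0.23 to 0.29).

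The rats differed more in these genes than in most. By mean signal the 10 genes stood between percentile 74.7 (Nr0b2) and 98.8 (Baat) of all genes, and their spread was not compared with genes of like level. The median SD over all 10 rats was 0.526 for the 10 genes against 0.179 for all genes, and by its SD Abcc3 stood at percentile 99.3 of all genes, Nr0b2 at 97.8 and Cyp7a1 at 97.1. Abcc2 stood at percentile 95.1, Slc10a1 at 94.4 and Cyp8b1 at 94.0, whereas Cyp27a1 stood at 50.8. Between the lowest and the highest rat, Abcc3 differed 9.04-fold, Cyp7a1 4.22-fold and Cyp27a1 1.48-fold. The lowest Abcc3 signal (6.48, CVX-060 rat 3) lay above percentile 95 of background on its array (5.94) but below percentile 99 (7.34). With 5 rats per group, such spreads leave wide intervals.

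**Figure D2:**
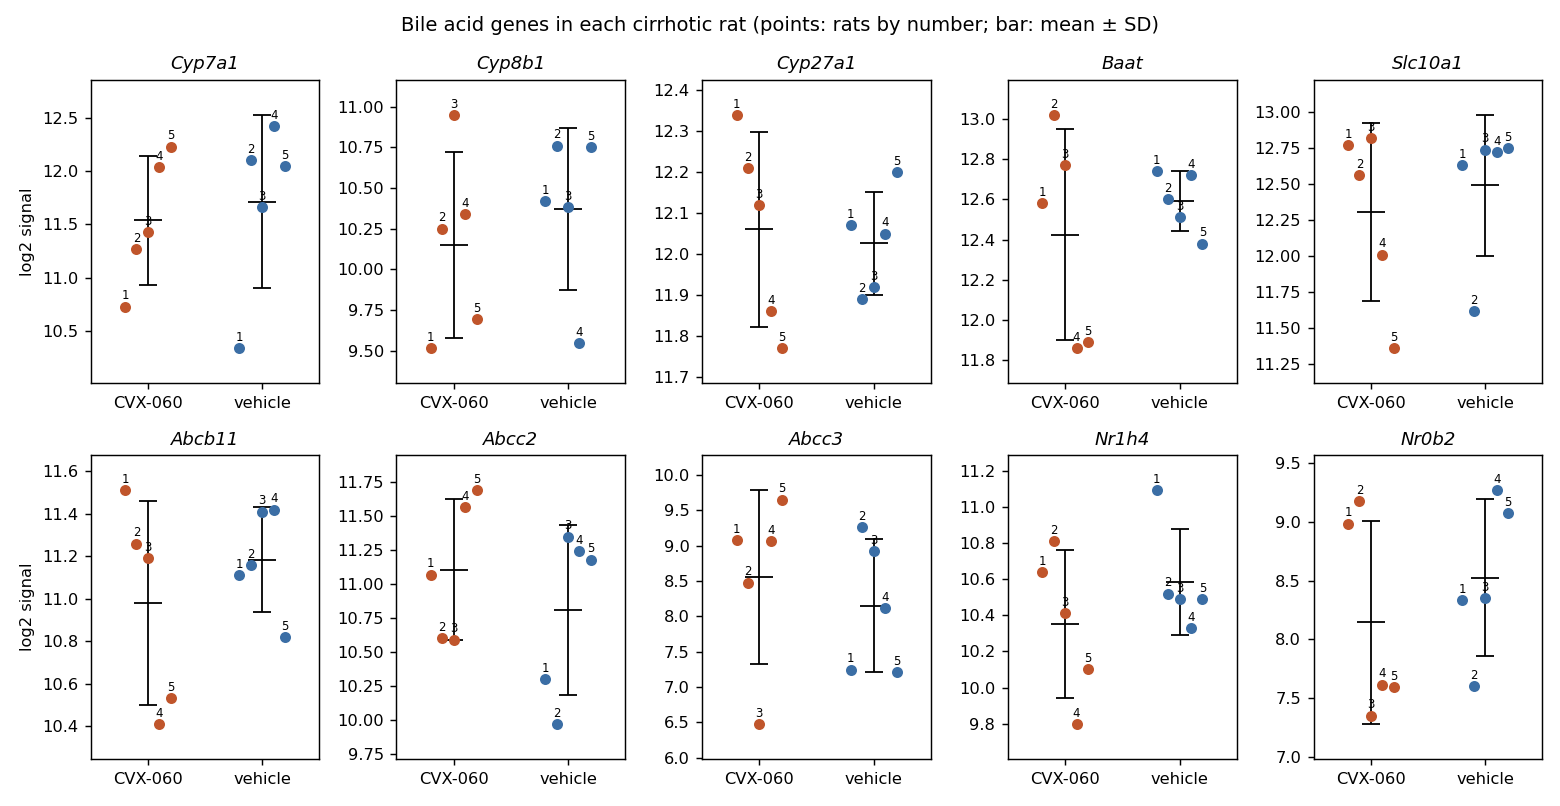
Log2 signal of each gene in every rat, CVX-060 left and vehicle right in each panel, with the group mean and SD as bars. The groups overlap in all 10 panels, and in several of them CVX-060 rats 4 and 5 lie at the lower end.

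The promoter letters of 3 genes that the results below turn on are shown for context: Slc10a1, the uptake carrier, Abcc2, the canalicular pump whose level was higher in the rats with low Bmal1, and Nr0b2, the repressor. Each is the 250 bases before the start of the gene in RefSeq on GRCr8, 5′ to 3′ on the gene's strand, and capitals mark letters that matched a searched motif.
Slc10a1: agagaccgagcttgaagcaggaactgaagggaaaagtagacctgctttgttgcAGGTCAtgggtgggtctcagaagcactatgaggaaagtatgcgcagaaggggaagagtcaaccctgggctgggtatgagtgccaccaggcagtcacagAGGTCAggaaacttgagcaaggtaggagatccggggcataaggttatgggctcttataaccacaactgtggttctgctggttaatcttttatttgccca
Abcc2: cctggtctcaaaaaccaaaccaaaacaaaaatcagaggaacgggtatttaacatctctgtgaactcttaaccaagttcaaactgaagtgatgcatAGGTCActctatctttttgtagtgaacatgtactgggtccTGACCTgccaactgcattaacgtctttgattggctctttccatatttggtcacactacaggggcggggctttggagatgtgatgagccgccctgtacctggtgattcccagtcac
Nr0b2: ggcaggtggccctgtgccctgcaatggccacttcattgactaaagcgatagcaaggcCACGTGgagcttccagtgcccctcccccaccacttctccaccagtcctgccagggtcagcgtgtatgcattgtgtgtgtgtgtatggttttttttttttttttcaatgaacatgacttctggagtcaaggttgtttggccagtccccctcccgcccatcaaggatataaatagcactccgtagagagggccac
The window of Slc10a1 is chr6:106357945-106358194 on the minus strand, that of Abcc2 chr1:252613625-252613874 on the plus strand and that of Nr0b2 chr5:151062910-151063159 on the plus strand. On both strands, exact matches were sought for the E-box CACGTG, which clock activators bind, the nuclear receptor core motif AGGTCA, an inverted pair of that motif with 1 base between (which contains the core motif), and the D-box letters TTATGTAA and TTACGTAA, which Dbp and its relatives bind. Slc10a1 held the core motif at -197 to -192 and at -99 to -94, counted back from the start, and Abcc2 held it at -155 to -150 and, on the other strand, at -115 to -110. Nr0b2 held an E-box at -193 to -188. Cyp27a1 held the core motif at -236 to -231 on the other strand and at -115 to -110, and Cyp8b1 and Baat held no match in this window. Of 33469 promoters of the same length, 14.1% held the core motif, 5.59% the E-box, 0.932% the D-box letters and 0.0269% the inverted pair. Of the 10 genes 6 were matched in the table, the others being Cyp7a1, Abcb11, Abcc3 and Nr1h4. A match of letters describes the sequence and is not a binding site.

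Cyp7a1, the rate-limiting enzyme of the classic pathway, had log2 signals of 10.73, 11.27, 11.43, 12.04 and 12.23 in CVX-060 rats 1 to 5, and of 10.34, 12.10, 11.66, 12.42 and 12.05 in vehicle rats 1 to 5. The lowest and the highest rat were both vehicle rats, and the CVX-060 rats lay between them. The means were 11.54 ± 0.61 with CVX-060 and 11.71 ± 0.81 with vehicle (SD, n = 5 rats each), a difference of -0.18 (SE 0.40, 95% interval -1.06 to 0.71, exact permutation test, two-sided, p = 0.691). The sign of this difference depended on single rats: it was 0.028 without CVX-060 rat 1 and 0.0004 without vehicle rat 4.

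Cyp8b1, the sterol 12α-hydroxylase that sets the share of cholic acid, had signals of 9.51, 10.25, 10.95, 10.34 and 9.69 in CVX-060 rats 1 to 5 and of 10.42, 10.76, 10.38, 9.54 and 10.75 in vehicle rats 1 to 5. Both the highest and the lowest signal came from CVX-060 rats, with vehicle rat 4 close to the lowest. Cyp8b1 averaged 10.15 ± 0.57 with CVX-060 and 10.37 ± 0.50 with vehicle, a difference of -0.22 (SE 0.30, exact permutation p = 0.540).

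Cyp27a1, the mitochondrial hydroxylase of the sterol side chain that starts the alternative pathway, was the steadiest of the 10 genes. It averaged 12.06 ± 0.24 with CVX-060, between 11.77 and 12.34, and 12.03 ± 0.13 with vehicle, between 11.89 and 12.20. The difference was 0.03 (SE 0.12, exact permutation p = 0.802). Within the CVX-060 group, rats 4 and 5 were the lowest of all 10 rats and rats 1 and 2 the highest. Left out in turn, CVX-060 rat 1 gave -0.037, CVX-060 rat 2 gave -0.0063 and vehicle rat 2 gave -0.0011.

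Baat, which conjugates bile acids, had signals of 12.58, 13.02, 12.77, 11.86 and 11.89 in CVX-060 rats 1 to 5, against 12.74, 12.60, 12.51, 12.72 and 12.38 in vehicle rats 1 to 5. CVX-060 rats 4 and 5 lay below every vehicle rat, and CVX-060 rats 2 and 3 above every vehicle rat. The means of 12.42 ± 0.52 with CVX-060 and 12.59 ± 0.15 with vehicle differed by -0.17 (SE 0.22, exact permutation p = 0.492).

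Slc10a1, the sodium-dependent carrier (NTCP) that takes conjugated bile acids up from portal blood, had signals of 12.77, 12.56, 12.82, 12.01 and 11.36 in CVX-060 rats 1 to 5 and of 12.63, 11.62, 12.74, 12.72 and 12.75 in vehicle rats 1 to 5. All but 3 rats lay close together, and the low ones were CVX-060 rats 5 and 4 and vehicle rat 2. The means of 12.30 ± 0.62 with CVX-060 and 12.49 ± 0.49 with vehicle differed by -0.19 (SE 0.31, exact permutation p = 0.603), and by 0.046 without CVX-060 rat 5. Those 3 rats also had the 3 highest signals of Cyp2c12, which was 7.58, 7.34, 7.28, 9.79 and 12.02 in CVX-060 rats 1 to 5 and 8.54, 12.71, 8.45, 7.52 and 7.11 in vehicle rats 1 to 5. The other sex-patterned genes measured followed in part. Cyp2c13 and Cyp3a2, P450s of male rat liver, were lowest in the same 3 rats, while Cyp2c11, another of them, was 13.54 in CVX-060 rat 4, above its 12.69 in CVX-060 rat 1, and A1bg, a gene of female rat liver, lay below background in all rats. The part of these genes' pattern in the Slc10a1 levels was not tested.

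Abcb11, the bile salt export pump (BSEP) of the canalicular membrane, had signals of 11.51, 11.26, 11.19, 10.41 and 10.53 in CVX-060 rats 1 to 5, against 11.11, 11.16, 11.41, 11.42 and 10.82 in vehicle rats 1 to 5. CVX-060 rats 4 and 5 were the 2 lowest, and the other 3 CVX-060 rats lay among the vehicle rats or just above them. The means were 10.98 ± 0.48 with CVX-060 and 11.18 ± 0.25 with vehicle, a difference of -0.20 (SE 0.22, exact permutation p = 0.397).

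Abcc2, the canalicular pump (MRP2) of conjugated organic anions such as bilirubin glucuronides, had signals of 11.07, 10.60, 10.59, 11.57 and 11.69 in CVX-060 rats 1 to 5 and of 10.30, 9.97, 11.35, 11.24 and 11.18 in vehicle rats 1 to 5. CVX-060 rats 4 and 5, low for Abcb11, were here the 2 highest, and vehicle rats 1 and 2 were the 2 lowest. Abcc2 averaged 11.11 ± 0.52 with CVX-060 and 10.81 ± 0.63 with vehicle, a difference of 0.30 (SE 0.32, exact permutation p = 0.429). It was -0.057 without CVX-060 rat 5 and vehicle rat 2 together, and 0.090 without vehicle rat 2 alone.

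Abcc3, the basolateral pump (MRP3) that returns bile acids and glucuronides to blood, had signals of 9.08, 8.48, 6.48, 9.07 and 9.65 in CVX-060 rats 1 to 5 and of 7.25, 9.27, 8.92, 8.12 and 7.21 in vehicle rats 1 to 5. It was lowest in CVX-060 rat 3 and highest in CVX-060 rat 5, so that the CVX-060 rats covered the whole range. The means of 8.55 ± 1.23 with CVX-060 and 8.15 ± 0.94 with vehicle differed by 0.40 (SE 0.61, exact permutation p = 0.579), and the difference moved between 0.12 without CVX-060 rat 5 and 0.92 without CVX-060 rat 3. Cholangiocytes also carry this pump, and the mean log2 signal of 8 cholangiocyte markers was 5.80, 5.42, 5.08, 5.76 and 6.30 in CVX-060 rats 1 to 5 and 5.00, 6.27, 5.69, 6.01 and 5.13 in vehicle rats 1 to 5. The 3 rats lowest for Abcc3, CVX-060 rat 3 and vehicle rats 1 and 5, were also the 3 lowest for these markers, and CVX-060 rat 5 and vehicle rat 2 were the 2 highest for both. Of the 8 markers, Epcam and Spp1 lay above background in all rats and Krt7, Cftr and Cldn4 in none, their summed log2 signal was 40.61 to 50.4 with CVX-060 and 40.03 to 50.14 with vehicle, and their part in the Abcc3 levels was not tested. The order was not particular to cholangiocyte markers: the mean of 6 stellate cell and fibroblast markers was 8.19, 8.19, 7.77, 8.05 and 8.43 in CVX-060 rats 1 to 5 and 7.68, 8.42, 8.11, 8.37 and 7.70 in vehicle rats 1 to 5, with the same 3 rats lowest and the same 2 highest, and their part was not tested either.

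Nr1h4, the bile acid receptor FXR, had signals of 10.64, 10.81, 10.41, 9.80 and 10.10 in CVX-060 rats 1 to 5, against 11.09, 10.52, 10.49, 10.33 and 10.49 in vehicle rats 1 to 5. CVX-060 rats 4 and 5 were again the lowest, and vehicle rat 1 stood above all others. The means were 10.35 ± 0.41 with CVX-060 and 10.58 ± 0.29 with vehicle, a difference of -0.23 (SE 0.20, 95% interval -0.68 to 0.22, exact permutation p = 0.333).

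Nr0b2, the repressor SHP, which FXR induces, had signals of 8.98, 9.18, 7.35, 7.61 and 7.59 in CVX-060 rats 1 to 5 and of 8.34, 7.60, 8.35, 9.27 and 9.07 in vehicle rats 1 to 5. In both groups some rats lay near 9 and others near 7.6 or lower, and CVX-060 rat 3 was the lowest. The means of 8.14 ± 0.86 with CVX-060 and 8.53 ± 0.67 with vehicle differed by -0.38 (SE 0.43, exact permutation p = 0.413).

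**Figure D3:**
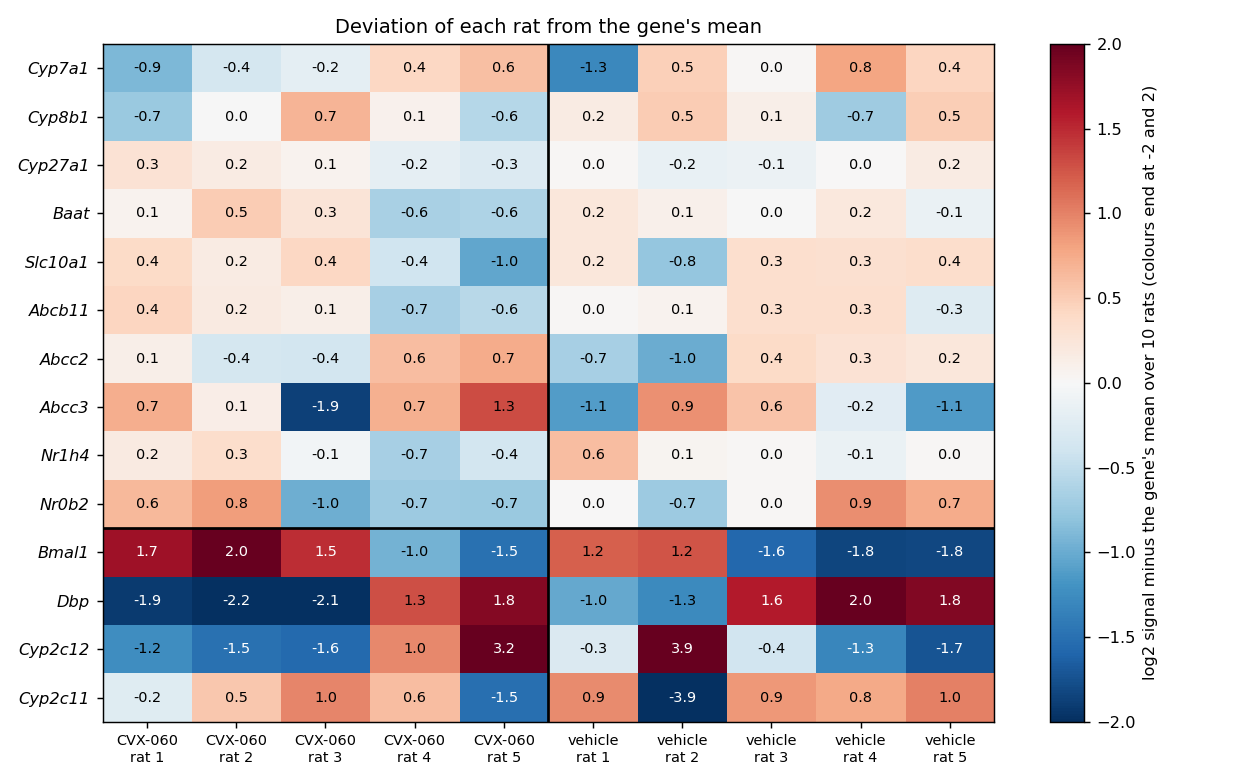
Deviation of each gene (down the page) from its own mean over the 10 rats, in log2 units, for each rat (CVX-060 rats left, vehicle rats right). CVX-060 rat 5 is among the 2 lowest rats for 6 of the 10 genes, such as Slc10a1, Abcb11 and Baat, and high for Cyp7a1, Abcc2 and Abcc3, and below the line Bmal1, Dbp, Cyp2c12 and Cyp2c11, a P450 of male rat liver, are shown on the same scale.

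Read by rat, the genes were not spread evenly. CVX-060 rat 5 was among the 2 lowest rats for 6 of the 10 genes (Cyp27a1, Baat, Slc10a1, Abcb11, Nr1h4 and Nr0b2) and CVX-060 rat 4 for 4 (Cyp27a1, Baat, Abcb11 and Nr1h4), whereas the other 8 rats were so for 0 to 2 genes each. At the same time CVX-060 rat 5 was among the 2 highest for Cyp7a1, Abcc2 and Abcc3. Without CVX-060 rats 4 and 5, which were chosen after the data were seen because they were low for these genes, so that the CVX-060 means of those genes had to be higher, 5 of the 10 genes had a lower mean with CVX-060 and their median difference was 0.01, in place of 7 and -0.18. The difference turned positive for Baat (0.20), Slc10a1 (0.22), Abcb11 (0.14) and Nr1h4 (0.039), and turned negative for Abcc2 (-0.051) and Abcc3 (-0.14). The CVX-060 rats left all had high Bmal1 (8.17 to 8.75), while vehicle rats 3, 4 and 5 had low Bmal1 (4.87 to 5.13). Treatment and Bmal1 level were thus confounded in this setting, and the part of Bmal1 level in the sign changes was not tested. Without CVX-060 rat 5 and vehicle rat 2, the rats that stood apart on the first component, the differences of Baat (-0.029), Slc10a1 (-0.17), Abcb11 (-0.094) and Nr1h4 (-0.18) stayed below 0.

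The relation of Cyp7a1 to the level of Bmal1 was part of the description sought. Bmal1 had signals of 8.38, 8.75, 8.17, 5.75 and 5.21 in CVX-060 rats 1 to 5, and of 7.90, 7.95, 5.13, 4.87 and 4.88 in vehicle rats 1 to 5. The rats thus fell into 5 with low Bmal1 (4.87 to 5.75, CVX-060 rats 4 and 5 and vehicle rats 3, 4 and 5), none of them above background, and 5 with high Bmal1 (7.90 to 8.75), all above it, with no rat in the gap of 2.15. Background here is percentile 95. At percentile 90 (4.57 to 4.86 on these arrays) all 5 rats with low Bmal1 lay above it, so whether Bmal1 was detected in them depends on the percentile. Dbp, a clock output gene, ran the other way, at 6.12, 5.84, 5.91, 9.33 and 9.86 in CVX-060 rats 1 to 5 and 7.01, 6.76, 9.62, 10.04 and 9.88 in vehicle rats 1 to 5. The Bmal1 difference between the treatments was 1.11 (exact permutation p = 0.214) and that of Dbp was -1.25 (exact permutation p = 0.222).

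Cyp7a1 lay between 11.66 and 12.42 in the 5 rats with low Bmal1, and between 10.34 and 12.10 in the 5 with high Bmal1. Among the high-Bmal1 rats, all but vehicle rat 2 (12.10) were at or below 11.43, so that this rat alone made the ranges overlap. This was not particular to Cyp7a1. Nr1h4 was 9.80 to 10.49 with low Bmal1 and, CVX-060 rat 3 (10.41) apart, 10.52 to 11.09 with high Bmal1. Baat was 12.58 to 13.02 with high Bmal1 and, vehicle rat 4 (12.72) apart, 11.86 to 12.51 with low Bmal1. The full ranges of Cyp7a1, Nr1h4 and Baat overlapped between the clusters, and the rats set apart here were picked after the values were seen. The share of all genes parted in this way was not computed, so these ranges are a description only. Because the rats formed 2 clusters of 5, under the 6 needed for a correlation, neither a pooled correlation of Cyp7a1 with Bmal1 or Dbp nor one within a cluster is given, and the relation was not tested. Within the low cluster Cyp7a1 was 12.04 to 12.23 with CVX-060 and 11.66 to 12.42 with vehicle, and within the high cluster it was 10.73 to 11.43 with CVX-060 and 10.34 to 12.10 with vehicle. With Bmal1 as a covariate, the limma difference of Cyp7a1 was 0.16 (SE 0.32, 95% interval -0.56 to 0.89) in place of -0.18. Both values lay within the error.

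**Figure D4:**
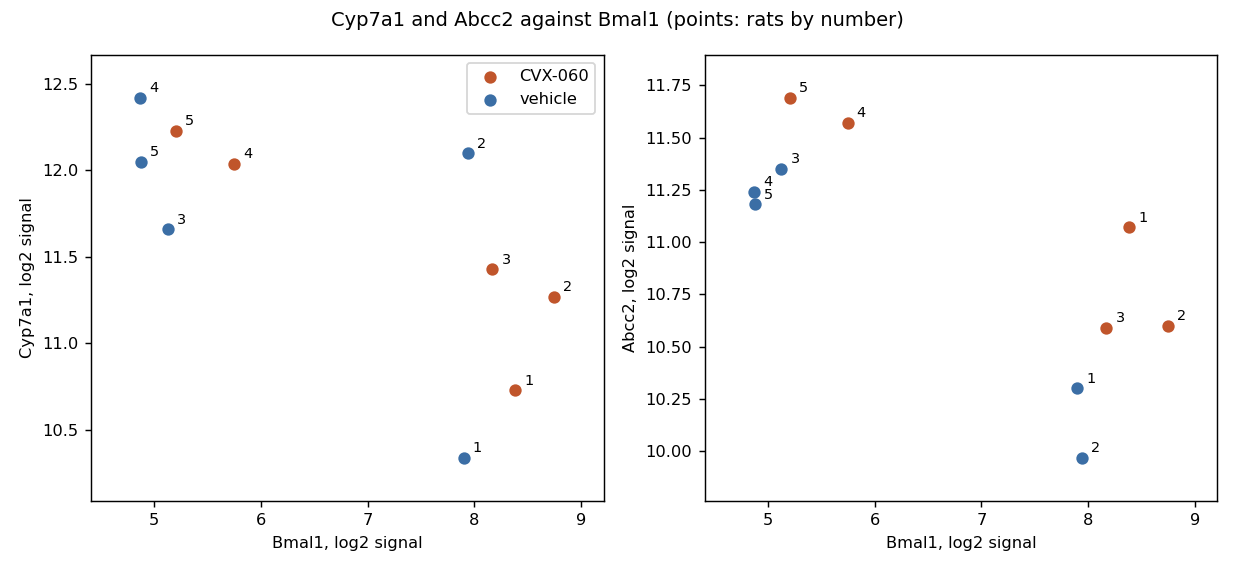
Log2 signal of Cyp7a1 (left) and Abcc2 (right) against that of Bmal1 in each rat, CVX-060 and vehicle marked apart. Rats with low Bmal1 (4.87 to 5.75) and high Bmal1 (7.90 to 8.75) form separate clusters, which overlap for Cyp7a1 through vehicle rat 2 and do not overlap for Abcc2.

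Of the 10 genes, only Abcc2 had ranges that did not overlap between the clusters, where 2.64% of all genes had none in common. It lay between 11.18 and 11.69 in the rats with low Bmal1 and between 9.97 and 11.07 in those with high Bmal1. Within each cluster Abcc2 was higher with CVX-060, at 11.57 to 11.69 with CVX-060 and 11.18 to 11.35 with vehicle in the low cluster, and at 10.59 to 11.07 with CVX-060 and 9.97 to 10.30 with vehicle in the high one. Ranges that lay apart in the same direction in both clusters were found for 1 of the 10 genes and for 1.74% of all genes. With Bmal1 as a covariate, the difference of Abcc2 was 0.67 (SE 0.13, 95% interval 0.38 to 0.96), a 1.59-fold higher level with CVX-060, with an adjusted p of 0.704 over all genes in limma. That of Nr1h4 was then -0.42 (SE 0.14, 95% interval -0.74 to -0.10, limma adjusted p = 0.834). In this setting 2 of the 10 genes had an unadjusted limma p under 0.05, as did 816 of all 14217 genes. This pattern of Abcc2 was noticed after the values were seen, the clusters hold 2 or 3 rats of a treatment each, and it did not pass the adjustment.

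Uptake was set against export in each rat, and 9 pairs of genes in all were set to be correlated, of which the 2 with Bmal1 and Dbp were not. Slc10a1 went with Abcb11 at r = 0.631 (permutation test, two-sided, p = 0.0421, adjusted p = 0.121) and rho = 0.539 (permutation p = 0.113, adjusted 0.396) over the 10 rats. Without CVX-060 rats 4 and 5, the 2 farthest from the median of Abcb11, r was 0.148. Leaving out the most extreme rats narrows the range of Abcb11, which by itself tends to lower r. The r was 0.623 without CVX-060 rat 4 alone, 0.446 without CVX-060 rat 5 alone and 0.774 without CVX-060 rat 5 and vehicle rat 2. Slc10a1 and Abcc3 had r = -0.665 (permutation p = 0.0286, adjusted p = 0.121) and rho = -0.661 (permutation p = 0.0433, adjusted 0.303). This r was -0.634 without CVX-060 rat 3 and vehicle rat 5, the 2 farthest, and -0.446 without CVX-060 rat 5 and vehicle rat 2. Slc10a1 and Abcc2 had r = -0.0927 (permutation p = 0.793, adjusted p = 0.925) and rho = -0.2 (permutation p = 0.585, adjusted 0.819), with an r of -0.669 without the 2 farthest rats. No pair passed the adjustment over the family.

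**Figure D5:**
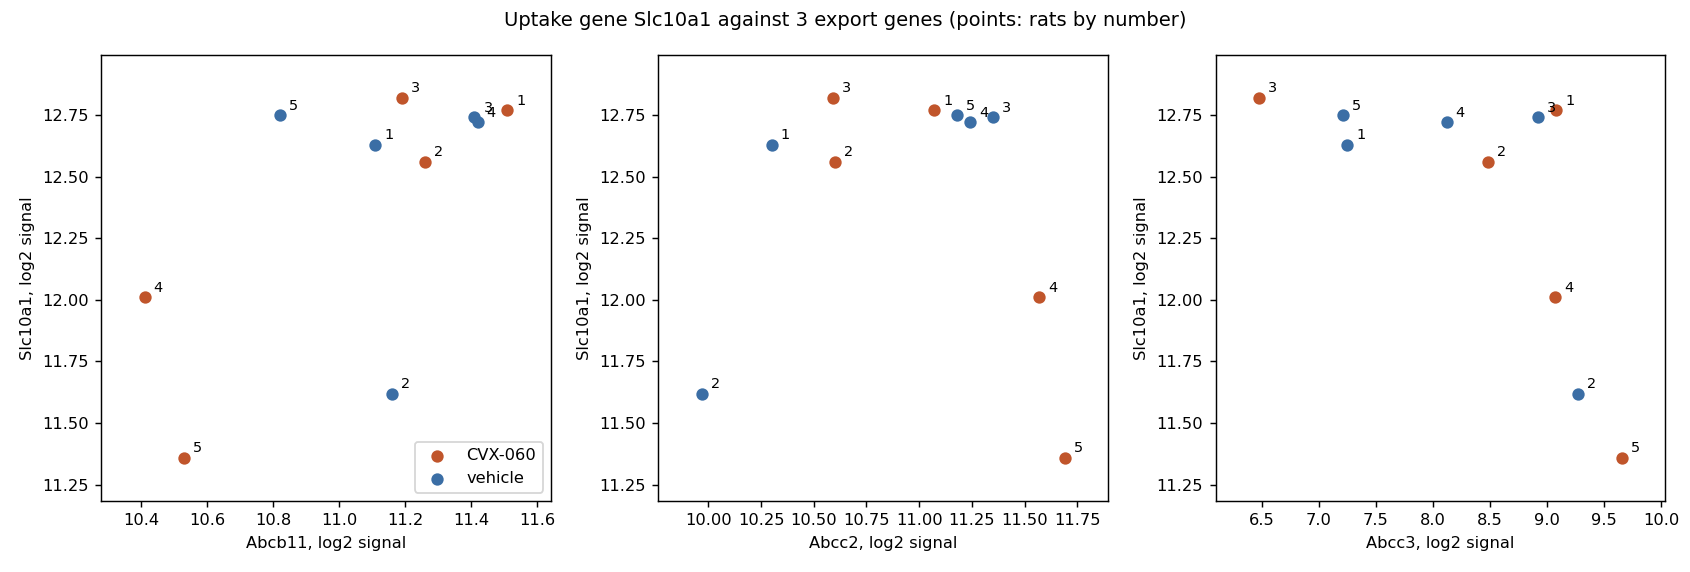
Log2 signal of Slc10a1 (uptake) against that of Abcb11, Abcc2 and Abcc3 (export) in each rat, CVX-060 and vehicle marked apart. The r of Slc10a1 with Abcc3 is -0.665 (permutation test, adjusted p = 0.121), and -0.446 without CVX-060 rat 5 and vehicle rat 2. For Abcb11 the r of 0.631 is 0.148 without CVX-060 rats 4 and 5 and 0.774 without CVX-060 rat 5 and vehicle rat 2.

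As a difference of log2 signals per rat, whose absolute size has no meaning because the probe sets differ, Slc10a1 minus Abcb11 was 1.32 ± 0.32 with CVX-060 and 1.31 ± 0.54 with vehicle (SD, n = 5 rats each). This balance of uptake and canalicular bile salt export differed by 0.0126 between the groups, less than the spread between rats. Slc10a1 minus Abcc2 was 1.20 ± 1.10 with CVX-060, with rats 4 (0.44) and 5 (-0.33) far below rats 1 to 3 (1.70, 1.96 and 2.23), and 1.69 ± 0.38 with vehicle, between 1.39 and 2.33. Slc10a1 minus Abcc3 was 3.75 ± 1.71 with CVX-060, between 1.71 and 6.34, and 4.34 ± 1.31 with vehicle, between 2.36 and 5.55. The groups overlapped in all 3 balances.

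Regulator and target were also set side by side. Nr1h4 and its target Nr0b2 had r = 0.439 (permutation p = 0.213, adjusted p = 0.373) and rho = 0.285 (permutation p = 0.426, adjusted 0.745). Nr1h4 and Abcb11, which FXR also induces, had r = 0.627 (permutation p = 0.052, adjusted p = 0.121) and rho = 0.418 (permutation p = 0.231, adjusted 0.539), and r was -0.141 without CVX-060 rats 4 and 5. Cyp7a1 and its repressor Nr0b2 had r = -0.156 (permutation p = 0.656, adjusted p = 0.918) and rho = -0.00606 (permutation p = 1.0, adjusted 1.0). Cyp7a1 and Cyp8b1 had r = -0.0278 (permutation p = 0.937, adjusted p = 0.937) and rho = -0.0788 (permutation p = 0.838, adjusted 0.978). Without the 2 farthest rats, r was 0.593 for Nr1h4 with Nr0b2, -0.49 for Cyp7a1 with Nr0b2 and -0.124 for Cyp7a1 with Cyp8b1. All 10 rats share 1 tissue and 1 array type, and such correlations over so few rats describe these livers only.

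Genes whose signals over the 10 rats were most like those of each member were sought among 8402 genes above background in at least 5 arrays, and are given as a description. Cyp7a1 went most closely with Vps26b (r = 0.951), Usp9x (0.946), Gdi2 (0.931), Wsb2 (0.926) and Gmps (0.915). Slc10a1 went with Slco1a1 (r = 0.985), which encodes a sodium-independent organic anion carrier of the same membrane, Ndrg2 (0.984) and Aldh2 (0.983). Slco1a1 had signals of 9.74, 9.73, 9.99, 9.31 and 8.92 in CVX-060 rats 1 to 5 and of 9.76, 8.99, 9.78, 9.76 and 9.79 in vehicle rats 1 to 5, with the same 3 low rats as Slc10a1. Cyp27a1 went with Hnf4a (r = 0.96), a nuclear receptor of hepatocyte identity, Znf865 (0.9) and Prodh2 (0.899). Hnf4a had signals of 7.93, 7.80, 7.56, 6.97 and 6.88 in CVX-060 rats 1 to 5 and of 7.76, 7.09, 7.26, 7.50 and 7.73 in vehicle rats 1 to 5, lowest in CVX-060 rats 5 and 4 as was Cyp27a1.

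Cyp8b1 went most closely with Rdh13 (r = 0.915), Pex3 (0.886) and Fbp1 (0.844), and Baat with Serpina6 (r = 0.956), Adss1 (0.945) and Cgn (0.932). Of the pumps, Abcb11 went with Cryz (r = 0.944), Aox1 (0.94) and Ugt2b10 (0.933), Abcc2 with Txnrd1 (r = 0.932), Sec16a (0.913) and Tor1aip2 (0.898), and Abcc3 with Cdc42se1 (r = 0.967), Tmem64 (0.967) and Ccdc68 (0.929). Nr1h4 went with Map4k5 (r = 0.951), Arid5b (0.908) and Baz1a (0.904), and Nr0b2 with Cyp2b3 (r = 0.919), Osbpl11 (0.9) and RT1-A (0.899). No member was among the genes named for another member.

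The wider pathway, from a list of further genes of synthesis, transport and regulation, gave no call either. Of 55 genes measured, 17 had a higher and 38 a lower mean with CVX-060, where 47.4% of all genes had a lower one, and the median difference was -0.03. None passed the adjusted p in limma, as for 0.0% of all genes, and 1 passed at an unadjusted p of 0.05, as 2.44% of all genes did. Above background in all rats were 15 of 17 synthesis and conjugation genes, 10 of 17 transport genes and 14 of 21 regulators. The counts of direction thus include genes near or below background. Of the 17 synthesis and conjugation genes, 15 had a lower mean with CVX-060 and 2 a higher one, with a median of -0.08, and those with the smallest p were Slc27a2, an acyl-CoA synthetase (-0.18, exact permutation p = 0.127), Abcd3, which carries bile acid intermediates into peroxisomes (-0.16, exact permutation p = 0.127), Amacr, the racemase of the side chain (-0.32, exact permutation p = 0.151), and Scp2, a peroxisomal thiolase (-0.26, exact permutation p = 0.270). Of 17 transport genes measured of 21 listed, 10 had a higher and 7 a lower mean, with a median of 0.06. Abcg8, a subunit of the canalicular sterol pump, was the 1 that passed unadjusted (0.34, exact permutation p = 0.0635), but lay below background in all rats. It was followed by the organic anion carriers Slco2b1 (-0.28, exact permutation p = 0.143) and Slco1b2 (-0.28, exact permutation p = 0.302) and by Ephx1, an epoxide hydrolase (-0.25, exact permutation p = 0.206). Of 21 regulators measured of 24 listed, 5 had a higher and 16 a lower mean, with a median of -0.04, and Nr5a2 (LRH-1), an activator of Cyp7a1 and Cyp8b1, had a difference of -0.23 (exact permutation p = 0.175). The liver factor genes Cebpa (-0.34, exact permutation p = 0.262) and Onecut1 (-0.35, exact permutation p = 0.325) and the xenobiotic receptor gene Nr1i2 (-0.15, exact permutation p = 0.294) came next.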

How the data were processed

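The authors deposited values as log2 signals, a row for each probe set, on a scale shared by the arrays (medians 5.52 to 5.57). For these the submitters' notes list R 3.4.0 with affy 1.56.0 and limma 3.38.2, and the background correction and summary method, which set how far low signals are compressed, are not given in the sources used here. Scanner files, detection calls and healthy livers were not analysed here. The source name labels count upward from CCl4 and CVX-060 over the rats, and the groups were taken from the treatment label of each rat, vehicle solution or CVX-060. Value columns left unmapped numbered 0.

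Of 31099 probe sets, 57 controls, 436 with several symbols and 9780 with none were left out, and each of 14217 genes was read from its most variable probe set, as in the study's methods. Groups were compared in limma 3.58.1 (R 4.3.3), adjusting over all genes by Benjamini-Hochberg, and member genes also by an exact permutation test. Correlations used 100000 resamples and were withheld where the largest gap exceeded a share of 0.5 of the range (Python 3.11.15, scipy 1.17.1, numpy 2.4.6, pandas 2.3.3, matplotlib 3.10.9). The limma step was tested on simulated data and the exact permutation test on made-up example values. The members, lists and tests were chosen with earlier results of these data known. Named genes are the 10 members, Bmal1, Dbp, the 4 with the smallest p in each part of the wider list and the 5 (Cyp7a1) or 3 genes most like each member, and the other genes were named after their values were seen. Alternatives were another choice or all of the probe sets, a filter at percentile 40 of mean signal, repeated quantile normalization, array medians at 0, array weights, a robust trended variance prior, a replicate block, leaving out each rat or both that stood apart, Bmal1 as a covariate, and background at percentiles 90 and 99. The labels call the livers biological replicates, and the number of arrays limits the precision.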

Additional observations from a re-analysis of the deposited data

Results flagged for a closer look

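In 24 sets of a gene in a group, 2 had a rat whose gap to the nearest other rat was unusually large for its group, and chance marks about 1 in 20 such sets. Slc10a1, the uptake carrier gene, had a log2 signal of 11.62 in vehicle rat 2, where the other vehicle rats lay between 12.63 and 12.75, a gap of 0.889 of the group's range. Nr1h4, the gene of the bile acid receptor FXR, had 11.09 in vehicle rat 1, where the other vehicle rats lay between 10.33 and 10.52, a gap of 0.752 of the range.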

How the results depend on the processing

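Under every alternative run, limma gave 0 genes at an adjusted p of 0.05, while the number at an unadjusted p under 0.05 moved between 156 (percentile 40 filter) and 816 (Bmal1 as a covariate) around 347, and was 686 with array weights, 557 over all probe sets, 713 without vehicle rat 2, 581 without both rats that stood apart and 655 without CVX-060 rats 4 and 5. The differences of Cyp7a1 and Cyp27a1 were 0.16 and -0.029 with Bmal1 as a covariate. Without CVX-060 rats 4 and 5, chosen after seeing the data, Baat, Slc10a1, Abcb11, Abcc2, Abcc3 and Nr1h4 had 0.20, 0.22, 0.14, -0.051, -0.14 and 0.039. Those rats were the CVX-060 rats with low Bmal1. Without both rats that stood apart, Abcc2 had -0.057, and r was 0.0754 for Cyp7a1 with Nr0b2 and 0.00911 for Cyp7a1 with Cyp8b1. Leaving out each rat in turn, the differences ranged between -0.52 and 0.028 for Cyp7a1, -0.037 and 0.11 for Cyp27a1, and -0.41 and 0.046 for Slc10a1, and r between -0.344 and 0.214 for Cyp7a1 with Cyp8b1 and between -0.596 and 0.336 for Slc10a1 with Abcc2. The sign was kept by the other 7 members and 5 correlations under leaving out 1 rat. The cause of these changes was not tested. Same-numbered rats did not deviate together (r = 0.0985, -0.101, 0.153, 0.0483 and -0.173 for numbers 1 to 5), and 1 of 10 rats correlated best with its own number. With the replicate block, 0 genes passed the adjusted p and 389 the unadjusted one. The probe set of highest mean changed no member, since each has 1 probe set. All 10 members lay above percentile 90 of background in every rat, and 9 above percentile 99, with Abcc3 below it in CVX-060 rat 3. An interval as wide as that of Abcc3 (-0.95 to 1.74) shows what 5 rats per group can resolve for the most variable member.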
